A study of Homo sapiens with 6 samples.

Results

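Ribosome biogenesis and nucleolar genes were followed in IMR32 cells, an established human neuroblastoma line, given 20 µM sAKZ692 or its solvent DMSO for 24 h. Members were defined by gene symbol, in a rule written with earlier results of these data known. They were the rows whose symbol begins with NOP, NOL, UTP, RRP, GNL or NOC and then a digit, or with POLR1, together with a fixed set of assembly and nucleolar genes among them FBL, GAR1, BOP1, BYSL, NCL and NPM1. The rule selected 51 of the 11351 genes in the table. DKC1, NHP2 and EBNA1BP2, which the rule also names, had no row under these symbols and were not analysed here.

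Each treatment had 3 libraries of total RNA, and all cells were of the same line with no other agent or genetic change in the labels. sAKZ692 is a compound known by its code name, described in the study's design text as an activator of NRF2, the transcription factor of the antioxidant response. Values are TPM, a transcript abundance corrected for length and scaled to a fixed total, so that levels can be set side by side between genes. The depth of each library is unknown, because TPM carries no read count. The labels do not say whether replicates were separate cultures, so p-values measure the spread between these libraries, which may be technical.

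Ribosomes are made in the nucleolus, where RNA polymerase I transcribes the long precursor of ribosomal RNA. Small nucleolar ribonucleoproteins of the box C/D kind methylate that precursor, and those of the box H/ACA kind convert uridines to pseudouridine. A large assembly, the small-subunit processome, then folds and cuts the part that becomes the small subunit, while other factors mature the large subunit. In neuroblastoma this programme is known as a target of MYCN, the MYC family member that is amplified in IMR32.

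Of 8 defining markers of noradrenergic neuroblastoma cells, 5 had a row. Among these, HAND2, GATA3 and MYCN were above 250 TPM in every library. TH was at or below 0.682 TPM in the DMSO libraries and at 0.971, 1.00 and 5.24 TPM in replicates 1, 2 and 3 of sAKZ692. The fibronectin gene FN1, the only one of 6 mesenchymal markers in the table, was at 22.8 to 29.5 TPM with DMSO and 13.4 to 25.0 TPM with sAKZ692, and the blood cell marker PTPRC stayed under 1 TPM. Replicate 3 of sAKZ692 was less like its fellow replicates. Its correlation with replicates 1 and 2 was 0.971 and 0.972 across the tested genes, against 0.992 between those replicates, so results that rest on it are given with and without it. Its listed genes made up 65.9% of the TPM scale, against 61.2% to 61.9% in the other libraries.

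With sAKZ692, 20 of the ribosome assembly genes fell, by modest amounts, and most of the others did not pass the test. All 51 members averaged 1 TPM or more across the 6 libraries and were tested. At an adjusted p below 0.05 in limma, a linear model fitted on log2(TPM + 1) over 9137 genes, 20 members were lower and 1, NOP53, was higher, while 30 did not pass. Members past the threshold in either direction made up 41.2%, against 32.6% of all tested genes. Over all tested genes 8.50% were lower and 24.1% higher, so the share of members called lower, 39.2%, lay above that background, and the share called higher, 1.96%, lay below it. Among the 6162 genes averaging 10 TPM or more, a split chosen after values were seen, 11.8% were lower and 21.4% higher, and 20 of the 47 members in that range were lower. In bulk RNA, fewer cells of a type and less RNA per cell cannot be told apart.

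The changes were modest in size. The median log2 fold change of the members was -0.28, where that of all tested genes was 0.14. The 20 lower members had log2 fold changes between -0.63 and -0.25 and treated means between 0.647 and 0.836 of the DMSO mean. No member that passed the threshold changed by 1 or more on the log2 scale. Libraries of the 2 treatments were fully separated in 28 lower and 3 higher members, against 14.6% and 35.9% of all tested genes. The 3 higher ones were NOP53, UTP14C and NOL4. The last reached the filter only through treated libraries, so its separation is not read as a change.

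The count of lower members moved with the libraries and the scaling used. Without replicate 3 of sAKZ692, 32 members (62.7%) were lower, among them all 20, against 14.5% of all tested genes, and NOP53 and NOL4 were higher, against 34.6%. NOL4 reached the filter only through treated libraries. Without replicate 1, 2 or 3 of DMSO, 7, 8 and 9 members were lower, against 4.44%, 4.42% and 4.85% of all tested genes, and 1 was higher each time, against 13.8%, 13.3% and 13.3%. Without replicate 1 of sAKZ692, 14 were lower and NOP53 and NOL4 higher, against 6.36% and 19.3%, and without replicate 2, 17 and 1, against 6.81% and 18.2%. After median-ratio scaling, in which each library is divided by a size factor, which moved the median of all tested genes from 0.14 to 0.0024, 31 members (60.8%) were lower against 16.2% of all tested genes, and 1 was higher against 15.0%. After quantile normalization 25 were lower against 13.0% and 1 was higher against 11.7%.

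**Figure D1:**
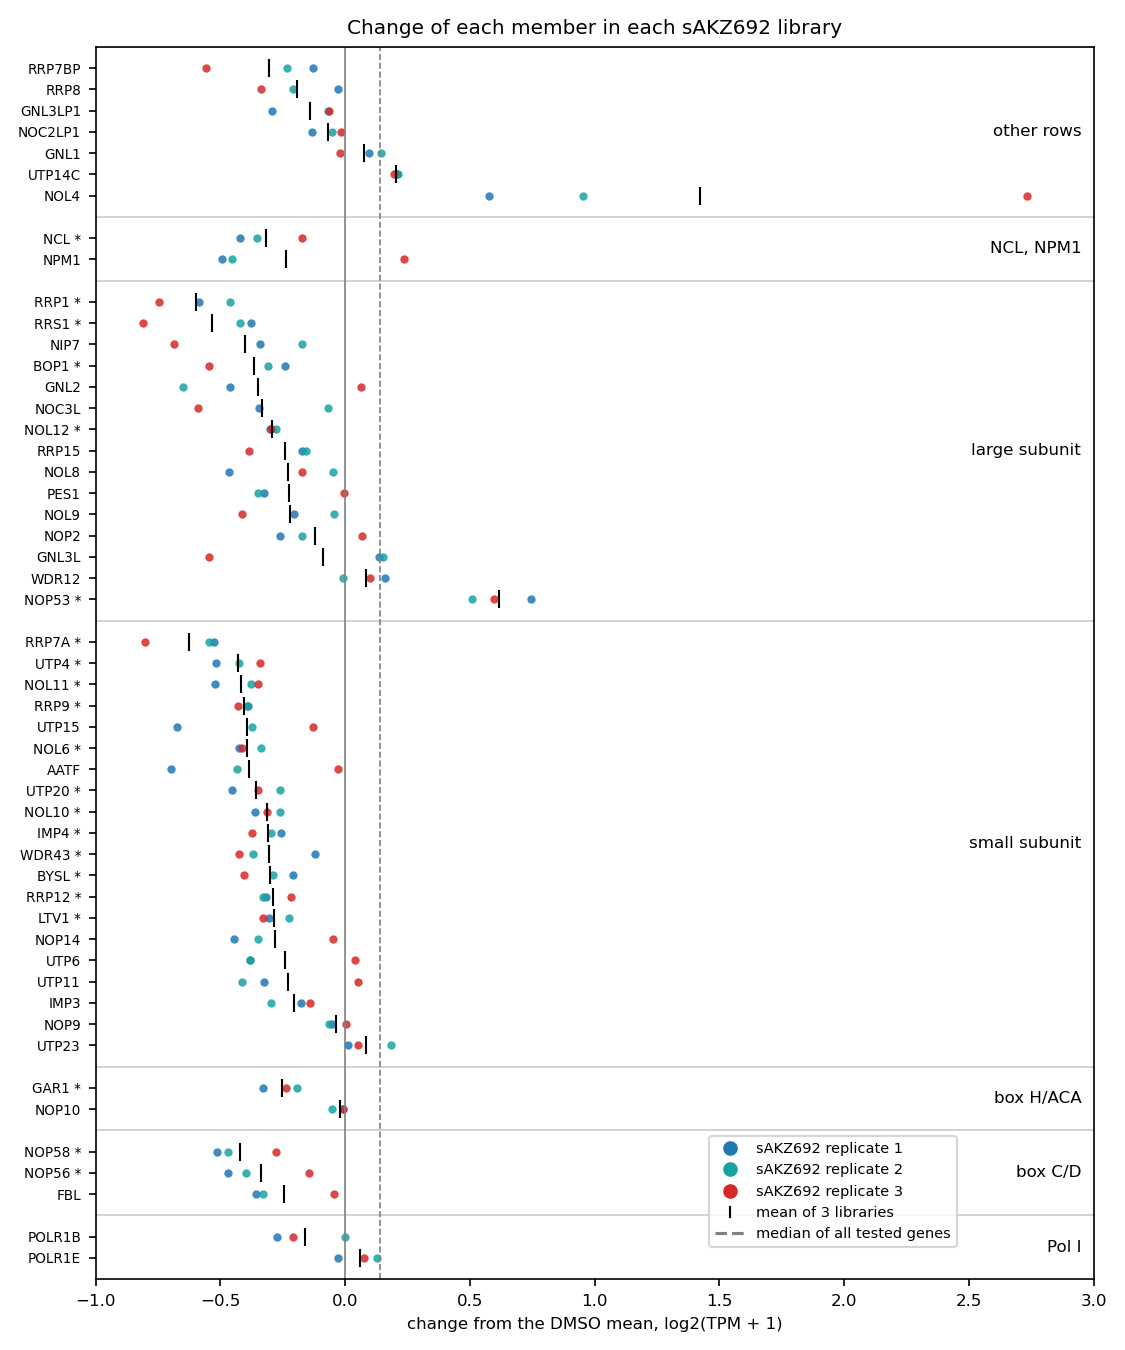
Change of each of the 51 members in each sAKZ692 library from the mean of the DMSO libraries, on the log2(TPM + 1) scale, grouped by role. Black ticks are means of 3 libraries, an asterisk marks a gene past the threshold, and the dashed line is the median of all tested genes at 0.14. Most ticks lie to the left of 0, and red points of replicate 3 lie to the right of the other libraries for NPM1, GNL2, UTP6 and FBL.

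Promoter sequences were examined for motifs that the members share. RefSeq promoters (GRCh38.p14), from 250 bases before to 50 bases after a gene's start, were matched by symbol for 41 of the 51 members and for 6909 tested genes. Of 5 short motifs searched on both strands, with matches of different motifs free to overlap, the E-box CACGTG, a palindrome read by MYC family and related factors, was in 18 of the 41 members (43.9%). It was in 10.7% of the promoters of tested genes and in 7.43% of all 27305 promoters in the table. In 17 of the 18 members it began within 50 bases of the start, against 40.9% of the tested genes that hold it. It was in 8 of the 15 matched members that were lower, in 10 of the 25 that did not pass and not in NOP53.

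The other motifs were searched in the same windows. The ETS core CCGGAAG was in 14 of the 41 members (34.1%) and in 19.7% of tested genes. TGACNNNGC, the core of the antioxidant response element, was in 3 (7.32%) and in 14.7%, and AAGATGGC, a YY1 core, in 3 (7.32%) and in 5.63%. The NRF1 palindrome was in 0 members and in 2.30% of tested genes. A match is a stretch of letters and not a measured site. MYCN itself was at 1390, 1430 and 1347 TPM with DMSO and at 1382, 1376 and 1539 TPM with sAKZ692, with a log2 fold change of 0.04 and an adjusted p of 0.683.

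The promoters of 6 members are shown, with each E-box in capitals and the rest in lower case, read from 5′ to 3′ on the gene's strand. UTP4 (chr16:69132399-69132698, plus strand), RRP9 (chr3:51941855-51942154, minus strand) and IMP4 (chr2:130342647-130342946, plus strand) are members that fell and carry an E-box near the start. In UTP4 it begins 16 bases before the start and in RRP9 5 bases before it, while IMP4 has one 203 bases before and one 15 bases after the start. NOP10 (chr15:34343087-34343386, minus strand) has 2 E-boxes and did not pass the test. RRP7A (chr22:42519747-42520046, minus strand) had the largest fall of the members and NOP53 (chr19:47745296-47745595, plus strand) was the member that rose, and neither window holds an E-box.
UTP4: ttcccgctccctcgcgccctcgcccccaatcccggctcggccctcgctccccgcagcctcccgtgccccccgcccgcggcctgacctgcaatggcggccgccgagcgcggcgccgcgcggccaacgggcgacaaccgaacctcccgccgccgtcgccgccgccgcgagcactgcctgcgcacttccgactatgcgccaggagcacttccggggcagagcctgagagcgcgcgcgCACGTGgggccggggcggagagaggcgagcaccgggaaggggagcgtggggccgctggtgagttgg
RRP9: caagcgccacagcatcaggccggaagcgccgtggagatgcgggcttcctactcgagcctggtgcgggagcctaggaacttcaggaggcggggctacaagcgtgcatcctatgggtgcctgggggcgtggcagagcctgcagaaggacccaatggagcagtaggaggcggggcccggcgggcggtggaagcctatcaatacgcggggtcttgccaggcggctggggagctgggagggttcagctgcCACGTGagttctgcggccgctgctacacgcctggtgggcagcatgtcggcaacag
IMP4: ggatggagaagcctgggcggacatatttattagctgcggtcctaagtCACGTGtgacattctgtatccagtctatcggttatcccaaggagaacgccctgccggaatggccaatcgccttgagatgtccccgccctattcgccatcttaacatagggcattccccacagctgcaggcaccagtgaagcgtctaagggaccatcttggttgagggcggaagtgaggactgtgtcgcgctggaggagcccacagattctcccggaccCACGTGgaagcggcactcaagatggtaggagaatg
NOP10: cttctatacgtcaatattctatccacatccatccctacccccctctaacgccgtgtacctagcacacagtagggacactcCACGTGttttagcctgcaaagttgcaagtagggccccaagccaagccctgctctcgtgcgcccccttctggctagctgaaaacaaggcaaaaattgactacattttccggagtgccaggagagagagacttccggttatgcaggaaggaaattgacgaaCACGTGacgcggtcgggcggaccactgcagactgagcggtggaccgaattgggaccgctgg
RRP7A: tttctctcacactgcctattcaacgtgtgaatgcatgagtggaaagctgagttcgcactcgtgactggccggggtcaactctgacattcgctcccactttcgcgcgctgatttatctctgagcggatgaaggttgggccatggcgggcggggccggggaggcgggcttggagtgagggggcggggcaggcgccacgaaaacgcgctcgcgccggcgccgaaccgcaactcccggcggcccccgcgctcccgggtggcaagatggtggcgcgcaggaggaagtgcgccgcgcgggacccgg
NOP53: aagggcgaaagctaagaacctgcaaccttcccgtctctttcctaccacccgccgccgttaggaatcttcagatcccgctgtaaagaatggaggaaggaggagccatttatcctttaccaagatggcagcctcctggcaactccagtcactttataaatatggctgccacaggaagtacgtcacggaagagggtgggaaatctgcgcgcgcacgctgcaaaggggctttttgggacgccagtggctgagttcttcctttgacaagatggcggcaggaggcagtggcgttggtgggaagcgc

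Small-subunit factors made up the largest role group, and 12 of its 20 genes fell (60%), with none higher. Over all tested genes 8.50% were lower and 24.1% higher. The group's median log2 fold change was -0.31. RRP7A, which works beside NOL6 in a subcomplex of the processome, was at 85.9, 88.5 and 87.1 TPM with DMSO and at 60.2, 59.3 and 49.5 TPM with sAKZ692. Its log2 fold change was -0.63 (standard error 0.09, adjusted p = 0.00266), and the groups did not overlap. The table also lists RRP7BP, a pseudogene copy of RRP7A, at 14.8, 15.7 and 16.0 TPM with DMSO and 14.0, 13.0 and 10.2 TPM with sAKZ692, so that the split of reads between the 2 copies is uncertain. NOL6 itself went from 44.5, 44.5 and 47.6 TPM to 33.6, 35.8 and 33.9 TPM, a log2 fold change of -0.39 (adjusted p = 0.00671).

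In the subcomplex that joins the processome to transcription of the precursor RNA, the members UTP4, NOL11 and WDR43 were lower and UTP15 did not pass. HEATR1 and WDR75, parts of the same subcomplex outside the rule and named after their values were seen, did not pass either (log2 fold changes -0.18 and -0.20, adjusted p = 0.186 and 0.135). UTP4, the WD-repeat protein cirhin, was at 94.8, 91.0 and 100.3 TPM with DMSO and at 66.2, 70.8 and 75.0 TPM with sAKZ692, a log2 fold change of -0.43 (adjusted p = 0.00594). NOL11 was at 196, 199.7 and 182 TPM with DMSO and at 134, 148 and 151 TPM with sAKZ692 (log2 fold change -0.42, adjusted p = 0.00616). Every treated library lay below every DMSO library for both genes. WDR43 fell from 98.1, 104.5 and 97.7 TPM to 91.8, 77.2 and 74.2 TPM (log2 fold change -0.31, adjusted p = 0.0399), a call lost without any 1 DMSO library or replicate 2 of sAKZ692 (adjusted p between 0.0987 and 0.136), after quantile normalization (0.0808) and in limma without the mean-variance trend (0.0652). UTP15 was at 23.4, 26.7 and 24.1 TPM with DMSO and at 15.1, 18.8 and 22.5 TPM with sAKZ692, short of the threshold (adjusted p = 0.0698).

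RRP9, the protein that marks the U3 small nucleolar ribonucleoprotein at the core of the processome, fell by a similar amount in each treated library. It was at 63.8, 66.1 and 64.9 TPM with DMSO and at 49.3, 49.2 and 48.0 TPM with sAKZ692, a log2 fold change of -0.40 (standard error 0.06, adjusted p = 0.00392). IMP4, which binds the U3 RNA and the precursor, was at 104, 101 and 102 TPM with DMSO and at 85.6, 83.3 and 78.9 TPM with sAKZ692 (log2 fold change -0.31, adjusted p = 0.0105). The call of IMP4 was lost without replicate 1 of DMSO (adjusted p = 0.0555). Its partner IMP3 was at 81.2, 89.8 and 92.6 TPM and at 77.6, 71.2 and 79.4 TPM and did not pass (adjusted p = 0.0853).

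UTP20, a very large scaffold protein, was at 20.1, 18.8 and 18.0 TPM with DMSO and at 13.6, 15.6 and 14.6 TPM with sAKZ692 (log2 fold change -0.36, adjusted p = 0.0256). NOL10, BYSL, RRP12 and LTV1, the last 3 of them factors of the late small-subunit precursor, fell with log2 fold changes between -0.31 and -0.29. None of these 5 genes overlapped between the groups, but each call was lost when single libraries were left out. NOL10 lost it without replicate 1 or 2 of DMSO (adjusted p = 0.0623 and 0.0635), and BYSL without any 1 DMSO library (0.0682 to 0.0727). LTV1 and UTP20 lost it without any 1 DMSO library or replicate 1 of sAKZ692 (0.0536 to 0.104), and RRP12 without any 1 library except replicate 3 of sAKZ692 (0.0611 to 0.106). RRP7A, UTP4, NOL11, RRP9 and NOL6 stayed below an adjusted p of 0.05 with any 1 of the 6 libraries left out.

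The 8 small-subunit genes that did not pass fell into different patterns. AATF, UTP6 and UTP11 had replicates 1 and 2 of sAKZ692 below the DMSO range and replicate 3 inside it. AATF, for one, was at 41.1, 45.6 and 44.6 TPM with DMSO and at 26.6, 32.2 and 42.9 TPM with sAKZ692. NOP14 went from 55.1, 56.1 and 53.0 TPM to 39.9, 42.7 and 52.9 TPM. NOP9 and UTP23 were near 0, with log2 fold changes of -0.04 and 0.08 and groups that overlapped. Without replicate 3 of sAKZ692, 18 of the 20 were lower, beside 14.5% of all tested genes: the 12, and AATF, UTP6, UTP11, UTP15, IMP3 and NOP14. Without any 1 DMSO library 5 to 7 of the 20 were lower, beside 4.42% to 4.85%. Leaving out replicate 1 or 2 of sAKZ692 gave 9 and 10, beside 6.36% and 6.81%. Median-ratio scaling gave 16 lower, beside 16.2%, and quantile normalization 13, beside 13.0%. In each of these fits 0 were higher. Under median-ratio scaling and quantile normalization the log2 fold change of UTP23 was -0.06 and -0.10.

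Of the 15 large-subunit factors 4 were lower (26.7%) and 1 higher (6.67%), beside 8.50% and 24.1% of all tested genes. Their median log2 fold change was -0.24, and 13 of the 15 values were negative. Without replicate 3 of sAKZ692, 8 were lower, beside 14.5% of all tested genes. Median-ratio scaling gave 8 lower, beside 16.2%, and quantile normalization 7, beside 13.0%. Leaving out any 1 DMSO library gave 1 or 2 lower, beside 4.42% to 4.85%. In each of these fits 1 gene was higher. RRP1, a nucleolar protein of early large-subunit precursors, was at 72.7, 72.5 and 82.5 TPM with DMSO and at 50.2, 54.8 and 44.8 TPM with sAKZ692, a log2 fold change of -0.60 (standard error 0.10, adjusted p = 0.00416). Its groups did not overlap, and the call held with any 1 library left out. RRS1, which brings the 5S ribonucleoprotein into the precursor, was at 57.2, 61.9 and 55.7 TPM with DMSO and at 44.6, 43.2 and 32.8 TPM with sAKZ692 (log2 fold change -0.54, adjusted p = 0.0150). This call was lost without replicate 1 or 2 of DMSO (adjusted p = 0.0523 and 0.0647).

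Of the PeBoW complex, made of PES1, BOP1 and WDR12 and needed to process the large-subunit RNA, only BOP1 passed the threshold. BOP1 was at 160.3, 156 and 154 TPM with DMSO and at 133, 126 and 107 TPM with sAKZ692 (log2 fold change -0.36, adjusted p = 0.0187). PES1 was at 114, 120.0 and 113 TPM with DMSO and at 92.0, 90.4 and 115 TPM with sAKZ692 (adjusted p = 0.122), and WDR12 at 94.3, 86.1 and 78.6 TPM and at 96.4, 85.5 and 92.4 TPM (adjusted p = 0.489). Only the groups of BOP1 did not overlap, and the differences between the 3 genes were not tested. PES1 passed as lower after median-ratio scaling (log2 fold change -0.38, adjusted p = 0.0295) and without replicate 3 of sAKZ692 (-0.34, adjusted p = 0.0011). BOP1 lost its call without any 1 DMSO library (adjusted p between 0.0624 and 0.0750) and after quantile normalization (0.0501).

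NOP53, a nucleolar protein of the large-subunit precursor, was the member that rose. It was at 141, 142 and 139 TPM with DMSO and at 237, 201 and 213 TPM with sAKZ692, a log2 fold change of 0.62 (standard error 0.08, adjusted p = 0.00167). Every treated library lay above every DMSO library, and the call held with any 1 library left out and under both scalings. NOL12, a nuclease that acts on precursor RNA, fell from 38.2, 37.3 and 39.7 TPM to 31.0, 31.5 and 31.1 TPM (log2 fold change -0.29, adjusted p = 0.0182), a call lost without any 1 DMSO library (0.0575 to 0.0728).

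Among the large-subunit genes that did not pass, NIP7 was at 59.4, 61.1 and 54.4 TPM with DMSO and at 45.7, 51.6 and 35.9 TPM with sAKZ692, just outside the threshold (adjusted p = 0.0517). GNL2, a nucleolar GTPase, was at 65.6, 70.2 and 66.0 TPM with DMSO and at 48.6, 42.5 and 70.4 TPM with sAKZ692. GNL3L, a relative of nucleostemin, showed the reverse, with 20.3, 18.8 and 20.6 TPM with DMSO and 21.9, 22.2 and 13.3 TPM with sAKZ692, the low value being that of replicate 3. NOP2, a methyltransferase of large-subunit RNA, was at 89.8, 93.1 and 89.2 TPM and at 75.5, 80.4 and 95.2 TPM. NOC3L, RRP15, NOL8 and NOL9 had log2 fold changes between -0.33 and -0.22 with adjusted p of 0.0938 or more. Without replicate 3 of sAKZ692, GNL2, NIP7, NOP2 and PES1 passed as lower (adjusted p between 0.000407 and 0.0238), and NIP7, NOC3L and RRP15 passed after both scalings (0.0161 to 0.0458).

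**Figure D2:**
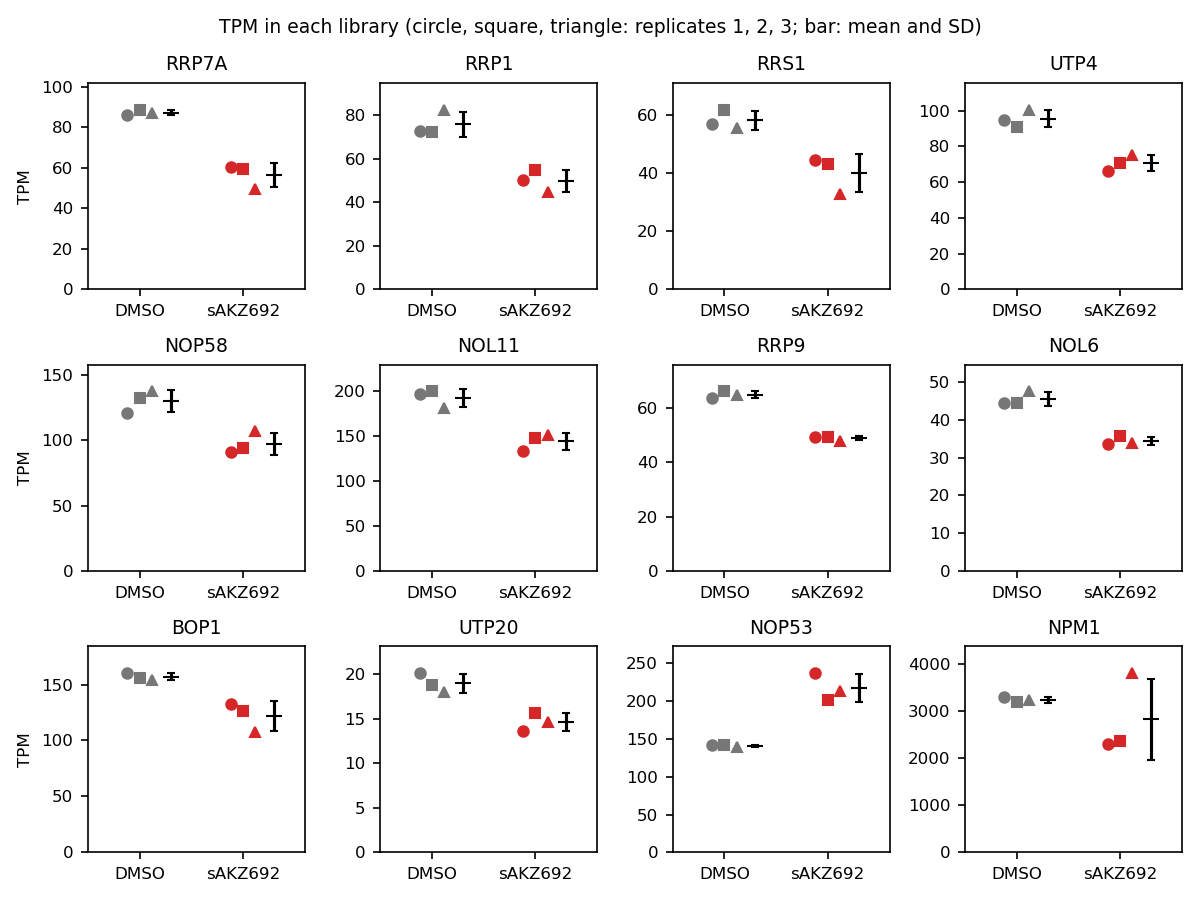
TPM of 12 members in each library, with DMSO in grey and sAKZ692 in red, symbols for replicates 1, 2 and 3, and the mean and SD of 3 libraries beside them. The first 10 panels are the members with the largest called falls, where the groups do not overlap, NOP53 is the member that rose, and NPM1 shows replicate 3 of sAKZ692 at 3820 TPM above the DMSO range.

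Of the core proteins of the box C/D particles that the rule matched, NOP56 and NOP58 fell and FBL did not pass. NOP58 was at 121, 132 and 137 TPM with DMSO and at 90.8, 93.8 and 107 TPM with sAKZ692 (log2 fold change -0.42, adjusted p = 0.0104). NOP56 was at 491, 494 and 511 TPM with DMSO and at 359, 378 and 452 TPM with sAKZ692 (log2 fold change -0.34, adjusted p = 0.0284). FBL, fibrillarin, the methyltransferase of the particle, was at 588, 576 and 582 TPM with DMSO and at 454, 463 and 564 TPM with sAKZ692 (adjusted p = 0.0773). Its log2 fold change of -0.24 became -0.40 after median-ratio scaling (0.0194) and -0.34 without replicate 3 of sAKZ692 (0.000203), but -0.07 after quantile normalization (0.494). In all 3 genes the treated libraries lay below the DMSO libraries, and replicate 3 of sAKZ692 was the highest of them. NOP58 lost its call without replicate 3 of DMSO (adjusted p = 0.0503), and NOP56 without any 1 library except replicate 3 of sAKZ692 (0.0790 to 0.102), after quantile normalization (0.0521) and without the mean-variance trend (0.0509).

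Of the box H/ACA proteins, GAR1 fell and NOP10 did not pass. GAR1 was at 41.4, 41.2 and 41.6 TPM with DMSO and at 32.8, 36.1 and 34.9 TPM with sAKZ692 (log2 fold change -0.25, adjusted p = 0.0333). NOP10, the smallest protein of the particle, was at 172, 170.0 and 166 TPM with DMSO and at 168, 163 and 168 TPM with sAKZ692, with a log2 fold change of -0.02 (standard error 0.06, adjusted p = 0.794). The call of GAR1 was lost without any 1 library except replicate 3 of sAKZ692 (adjusted p between 0.0507 and 0.108).

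Nucleolin and nucleophosmin, multifunctional and very abundant nucleolar phosphoproteins, had the highest levels of all members. NCL was at 1139, 1208 and 1088 TPM with DMSO and at 854, 896 and 1016 TPM with sAKZ692 (log2 fold change -0.32, adjusted p = 0.0279), and the call was lost when any 1 library other than replicate 3 of sAKZ692 was left out (0.0627 to 0.109). NPM1 was at 3299, 3191 and 3243 TPM with DMSO and at 2301, 2370 and 3820 TPM with sAKZ692 (log2 fold change -0.24, adjusted p = 0.349). Its first 2 treated libraries lay below the DMSO range and the third above it. Without replicate 3 its log2 fold change was -0.47 (adjusted p = 2.7e-05). NPM1 has many processed pseudogenes, so its level is uncertain.

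The summed level of the set differed between replicate 3 of sAKZ692 and the other treated libraries. The members summed to 8308, 8313 and 8215 TPM with DMSO and to 6380, 6507 and 8312 TPM with sAKZ692, and NPM1 made up 46.0% of the last sum against 36.1% to 39.7% elsewhere. The 50 members without NPM1 summed to 5008, 5121 and 4972 TPM with DMSO and to 4078, 4136 and 4492 TPM with sAKZ692, all 3 treated libraries being lower. In 35 members replicates 1 and 2 were below every DMSO library, and in 7 of these, 20.0%, replicate 3 was not. Over all tested genes this held for 557 of 1890, or 29.5%.

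**Figure D3:**
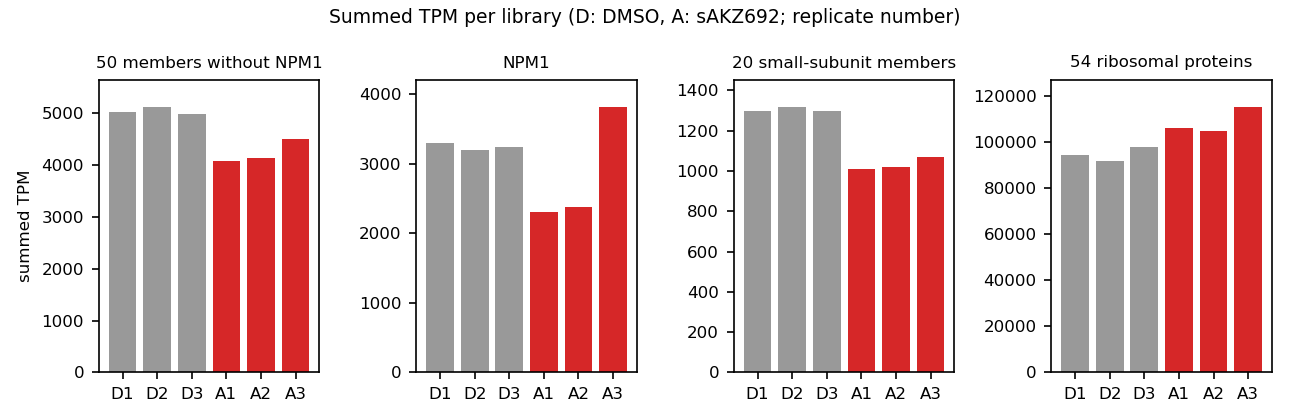
Summed TPM in each library for the 50 members without NPM1, for NPM1, for the 20 small-subunit members and for 54 cytosolic ribosomal protein genes, with bars starting at 0. Library A3, replicate 3 of sAKZ692, exceeds the DMSO libraries for NPM1 but lies below them for the other members, while ribosomal protein genes are higher in each sAKZ692 library.

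Subunits of RNA polymerase I matched by the rule, POLR1B and POLR1E, did not pass. POLR1B, which encodes the second largest subunit, was at 26.3, 24.5 and 22.5 TPM with DMSO and at 20.0, 24.4 and 20.9 TPM with sAKZ692 (adjusted p = 0.268), and it passed as lower after median-ratio scaling (0.0485) and quantile normalization (0.0492). POLR1E, a subunit shared with no other polymerase, was at 37.6, 41.4 and 36.6 TPM and at 37.6, 42.1 and 40.6 TPM (adjusted p = 0.621). Under older symbols, outside the rule, the table held 3 more subunits. CD3EAP, now POLR1G, fell from 15.5, 16.4 and 14.2 TPM to 8.31, 7.95 and 7.81 TPM, a log2 fold change of -0.86 (standard error 0.10, adjusted p = 0.00136). This was a larger fall than that of any member. TWISTNB (POLR1F) and ZNRD1 (POLR1H) did not pass, with log2 fold changes of -0.09 and -0.24 (adjusted p = 0.590 and 0.0994).

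The remaining 7 rows are matched by symbol but were set apart as pseudogenes, gene copies or genes taken here as less tied to assembly. None passed in the main fit. RRP7BP, given above, passed as lower after median-ratio scaling (log2 fold change -0.45, adjusted p = 0.0327) and quantile normalization (-0.53, adjusted p = 0.0215). GNL1, a GTPase gene, was at 48.5, 52.6 and 51.4 TPM with DMSO and at 54.4, 56.3 and 50.1 TPM with sAKZ692, and RRP8, a nucleolar methyltransferase, at 19.8, 16.2 and 19.7 TPM and at 18.1, 15.8 and 14.4 TPM. UTP14C, an intronless copy of UTP14A, was at 12.9, 12.6 and 11.4 TPM and at 14.4, 14.4 and 14.3 TPM (adjusted p = 0.124), and the groups did not overlap. The pseudogenes GNL3LP1 and NOC2LP1 were near the filter, at 1.18 to 3.02 TPM. NOL4, a gene with neuronal expression, was at 0.312, 0.170 and 0.261 TPM with DMSO and at 0.860, 1.41 and 7.29 TPM with sAKZ692 (adjusted p = 0.0656). It reached the filter of 1 TPM only through its treated libraries. No call of NOL4 under other settings is read as a change for that reason.

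Ribosome assembly genes outside the rule were described in 4 lists. The first list, of 13 genes, held polymerase I initiation and nucleolar scaffold genes and also polymerase subunits, among them CD3EAP, TWISTNB and ZNRD1 given above. Of these 13, 6 were lower (46.2%) and 0 higher, beside 8.50% and 24.1% of all tested genes. The lower genes were CD3EAP, UBTF, TOP1, POLR2E, POLR2F and POLR2L. UBTF, the factor that binds the ribosomal RNA promoter, was at 184, 187 and 177 TPM with DMSO and 132, 138 and 139 TPM with sAKZ692 (log2 fold change -0.42, adjusted p = 0.00307). TOP1, topoisomerase I, fell from 179.6, 178 and 167 TPM to 128, 133 and 143 TPM (log2 fold change -0.38, adjusted p = 0.00696). POLR2E, a subunit common to the nuclear polymerases, had a log2 fold change of -0.34 (adjusted p = 0.00809), a call lost after quantile normalization (0.0589). RRN3, the initiation factor of polymerase I, was at 21.7 to 23.1 TPM and 20.4 to 26.2 TPM (adjusted p = 0.991). TAF1D and NOLC1 did not pass either (adjusted p = 0.560 and 0.0830).

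Other small-subunit factors were lower in 5 of 26 (19.2%) and higher in 0. EMG1, a methyltransferase of small-subunit RNA, fell from 63.2, 64.8 and 60.9 TPM to 38.4, 44.0 and 38.1 TPM (log2 fold change -0.64, adjusted p = 0.00184). PNO1, a late small-subunit factor, NAT10, the acetyltransferase of small-subunit RNA, and TSR2, a chaperone of a ribosomal protein, had log2 fold changes of -0.37, -0.35 and -0.35. Other large-subunit factors were lower in 10 of 30 (33.3%) and higher in 0, among them MRTO4 (log2 fold change -0.59), RPF2 (-0.49), URB2 (-0.47) and the GTPase gene GTPBP4 (-0.42), with adjusted p between 0.00269 and 0.00770. Of 12 genes of the RNA exosome, which trims ribosomal precursors, 3 were lower (25.0%) and 0 higher. EXOSC9 fell from 77.0, 80.0 and 79.3 TPM to 43.6, 48.2 and 54.3 TPM (log2 fold change -0.69, adjusted p = 0.00200), and EXOSC3 and EXOSC2 had log2 fold changes of -0.45 and -0.44.

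These counts depended on the libraries. Without replicate 3 of sAKZ692, 8 of the 13 polymerase I and scaffold genes, 13 of the 26 small-subunit, 16 of the 30 large-subunit and 6 of the 12 exosome genes were lower, beside 14.5% of all tested genes, and 1 large-subunit gene was higher. After median-ratio scaling 10, 14, 15 and 6 were lower, beside 16.2%, and after quantile normalization 7, 10, 10 and 5, beside 13.0%. Without any 1 DMSO library, 5 or 6 of the polymerase I and scaffold genes, 4 of the small-subunit, 5 or 6 of the large-subunit and 3 of the exosome genes were lower, beside 4.42% to 4.85%. Without replicate 1 of sAKZ692, 6 of the polymerase I and scaffold genes, 4 of the small-subunit, 6 of the large-subunit and 3 of the exosome genes were lower, beside 6.36%, and 1 polymerase I or scaffold gene was higher.

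Genes of the cytosolic ribosomal proteins, the parts that the assembly factors put together, did not fall. Of 54 tested, 12 were higher and 0 lower, a share of 22.2% near the 24.1% of all tested genes, with a median log2 fold change of 0.18 beside 0.14 for all tested genes. Their summed level was 94555, 91915 and 97881 TPM with DMSO and 106340, 104697 and 115480 TPM with sAKZ692. RPL3, RPL4 and RPL23 had log2 fold changes of 0.34, 0.31 and 0.37 (adjusted p between 0.00985 and 0.0173), and all 3 calls were lost after median-ratio scaling (0.105 to 0.165), that of RPL4 also after quantile normalization (0.104) and without any 1 DMSO library (0.0505 to 0.0809). RPL23 also lost its call without any 1 DMSO library (0.0558 to 0.0806) and RPL3 without replicate 1 of DMSO (0.0562). After median-ratio scaling 1 of the 54 was higher, against 15.0% of all tested genes, and 1 lower, against 16.2%. Quantile normalization gave 10 and 0, against 11.7% and 13.0%. The fit lacking replicate 3 of sAKZ692 called 30 higher, against 34.6%, and 1 lower, against 14.5%. With any 1 DMSO library left out, 1 to 3 passed as higher, against 13.3% to 13.8%. In those fits 0 passed as lower, against 4.42% to 4.85%.

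The 5S ribonucleoprotein is brought into the large-subunit precursor by RRS1 and RPF2. Both were lower, as given above, and RPF2 was at 42.2, 44.0 and 43.6 TPM with DMSO and at 29.7, 30.3 and 31.4 TPM with sAKZ692. RPL5, a ribosomal protein of that particle, rose from 1626, 1589 and 1606 TPM to 2075, 2062 and 2174 TPM (log2 fold change 0.39, adjusted p = 0.00468), and the call held under both scalings and with any 1 library left out. RPL11, the other protein of the particle and named after its values were seen, was at 1213, 1229 and 1245 TPM with DMSO and at 1469, 1421 and 1701 TPM with sAKZ692 (log2 fold change 0.31, adjusted p = 0.0265). Its call was lost after median-ratio scaling (adjusted p = 0.214) and without any 1 DMSO library (0.0833 to 0.1004). Ribosomal protein genes have many processed pseudogenes, so their levels are uncertain.

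**Figure D4:**
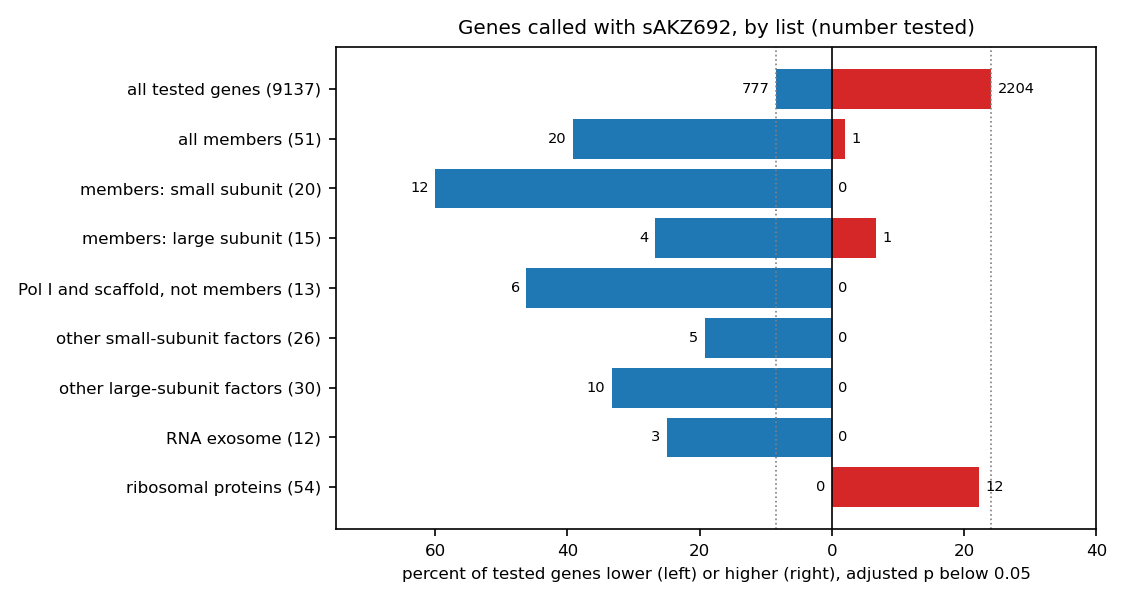
Percent of tested genes called lower (blue, to the left) or higher (red, to the right) with sAKZ692 at an adjusted p below 0.05, with the number called beside each bar and the number tested in brackets. Dotted lines mark the 8.50% and 24.1% of all tested genes, and the bars of assembly factors extend left past the first line, while ribosomal proteins have a bar to the right only.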

How the data were processed

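RNA of IMR32 cells was sequenced as single-end reads of 50 bases on a BGISEQ-500, per the labels' protocols. Kallisto was used, per the submitters' processing notes. No source used here gives its version, annotation, genome build or strand setting. A single table of TPM was deposited by the authors, with 1 column per library, whose headers matched the 6 sample titles.

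Genes averaging 1 TPM or more across the 6 libraries (9137 of 11351) were transformed to log2(TPM + 1) and compared with limma 3.58.1 in R 4.3.3, with a mean-variance trend and Benjamini-Hochberg adjustment over all of them. On this scale fold changes of low genes come out too small. The limma step was tested on data simulated with changes larger than those of most called members, so its recovery of changes of their size was not tested. Members, role groups and lists were chosen with earlier results of these data known, so lists are described by counts and medians without a test. Listed genes without a row could not be counted. Rows were found for 20 of 28 listed small-subunit members, 15 of 20 large-subunit members and 54 of 79 ribosomal protein genes. Values per library are given for the 10 largest called falls and rises, the 2 most abundant members of each role, and all polymerase I and snoRNP members, with others named to describe their role. For each outside list up to 4 called genes of smallest adjusted p are named. Promoters came from RefSeq. Some results of the cell type marker lists are not reported here.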

Additional observations from a re-analysis of the deposited data

How the results depend on the processing

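Of the members, 1 was higher with most alternatives tried and 2 were with a pseudocount of 0.1 or 0.5 TPM, the second being NOL4, which reached the filter only through treated libraries; leaving out single libraries gave 1 to 2. The 20 lower members became 31 after median-ratio scaling, and between 7 and 32 when each library was left out in turn, the lowest counts coming without a DMSO library and the highest without replicate 3 of sAKZ692. With robust estimation, no filter, a minimum mean of 5 TPM or another pseudocount 20 were lower, without the trend 18 and after quantile normalization 25. The median log2 fold change of the members was -0.28, moved to -0.43 after median-ratio scaling and to -0.35 after quantile normalization, and stayed between -0.28 and -0.25 without single libraries. No member past the threshold in any of these fits changed direction. Over all tested genes the split of 2204 higher and 777 lower became 1369 and 1478 after median-ratio scaling and 1073 and 1188 after quantile normalization. Same-numbered libraries of the 2 groups did not deviate together (correlations of 0.0614, -0.0246 and 0.0415), so the numbers were not taken as pairs. With the replicate block, 16 members were lower and 1 higher. GAR1, NCL, RRP12, UTP20 and WDR43 lost their calls (adjusted p between 0.0584 and 0.0710) and NIP7 gained a call (0.0336). Over all tested genes the fit with the block called 636 lower, against 777 in the main fit, and also fewer higher. Fewer of all tested genes were likewise lower without the trend. The causes of these shifts were not tested. The read count behind each value is unknown, and a member that did not pass is not shown to be unchanged.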
